A study of Heterocephalus glaber and Mus musculus with 9 samples.

Results

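The genes described here are the translation factors and the aminoacyl-tRNA synthetases of the spleen of naked mole-rats (NM-Rs) and mice. They were chosen by symbol from a table of normalized read counts: names that start with Eif or Eef followed by a digit, and names that stand for an aminoacyl-tRNA synthetase, such as Lars, Vars2 or Eprs. The rule found 66 of the 12946 genes listed, 37 of them translation factors and 29 synthetases, and used no measured value. Every one of the 66 genes had more than 3 reads in each of the 9 spleens, and all had a mean of at least 10 normalized counts.

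Spleen RNA was sequenced from 3 groups of 3 animals, with 1 library per animal. The mice were wild-type C57Bl/6N males of 2 months (mouse 1, 2 and 3). The NM-Rs, labelled as african naked mole-rats, fell into a cohort with a small spleen (ssNM-R) and a cohort with an enlarged spleen (lsNM-R). The ssNM-Rs were males 2, 3 and 6, aged 30, 26 and 23 months, and the lsNM-Rs were animals 1, 4 and 5, aged 24, 29 and 23 months, of which animal 4 was the only female. All animals were healthy and untreated, and the NM-Rs were kept warmer than the mice. The labels give each sample as whole spleen, and values are given throughout in the order of these animal numbers. Species, age, housing, genome build and gene annotation cannot be told apart in a comparison of NM-Rs with mice, whereas ssNM-Rs and lsNM-Rs share their genome and annotation.

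Protein synthesis starts when eIF2, loaded with GTP and the initiator tRNA, joins the small ribosomal subunit, which eIF3 and the cap-binding eIF4 factors bring to the mRNA. Phosphorylation of the alpha subunit of eIF2 by one of its kinases blocks the exchange factor eIF2B, lowers general initiation and lets selected mRNAs such as that of Atf4 be translated, a programme called the integrated stress response. During elongation eEF1A delivers the tRNAs and eEF2 moves the ribosome along. The tRNAs themselves are charged by synthetases, for which most amino acids have a cytosolic and a separate, nucleus-encoded mitochondrial enzyme. The spleen holds cells that make large amounts of a single protein, such as plasma cells and red cell precursors, and the latter rely on a kinase of eIF2 that senses haem.

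The values are read counts divided by 1 size factor per library and are not divided by gene length, so the levels of a gene are compared between spleens and not with those of another gene. The mouse libraries held 10441982 to 11180912 reads. Of the NM-R libraries, ssNM-R 2, ssNM-R 3 and lsNM-R 1 held 7815326 to 8985705 reads and ssNM-R 6, lsNM-R 4 and lsNM-R 5 held 16883689 to 18387599. The spleen markers Nkx2-5 and Tlx1 were detected in all 9 libraries, at 75.0 to 93.3 and 647 to 926 normalized counts in mice and 129 to 374 and 702 to 973 in NM-Rs. Marker genes of the cell types differed between species, where 39.7% of all genes were higher in NM-Rs and 38.8% lower. All 8 listed B cell markers and all 7 T cell markers were lower, and all 11 erythroid markers were higher. Of 8 markers of proliferating cells 3 were in the table, all higher. Other lists were less uniform, with 0 higher and 4 lower of 6 for plasma cells and 6 and 2 of 8 for granulocytes. For macrophages these were 4 and 2 of 8, and for spleen stroma 3 and 0 of 4. Of 4 pancreas markers 2 were in the table and differed in opposite directions. Cpa1 was at 0 to 3.15 normalized counts in mice and 58.3 to 125.7 in NM-Rs, and Cela1 at 364 to 494 and 26.8 to 59.3. The part of these cell types and of pancreas tissue in the results below was not tested. In whole spleen RNA fewer cells of a type and less RNA per cell cannot be told apart.

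Mouse and NM-R spleens were compared first. On the log2(normalized count + 1) scale, 36 of the 66 genes were higher in NM-Rs than in mice (39.7% of all 12946 genes were higher) and 12 were lower (38.8% of all genes), while 18 did not pass the threshold of an adjusted p of 0.05 in limma. Fold changes are given on this scale with their standard error (SE). A difference in either direction was thus called for 72.7% of these genes, compared to 78.5% of all genes. The median log2 fold change was 0.33, with 0.35 for the synthetases and 0.32 for the factors, compared to 0.0097 over all genes. Most differences were small: 8 genes were both called and at least 2-fold higher in NM-Rs (26.2% of all genes were) and 5 were at least 2-fold lower (25.9% of all genes). Every NM-R spleen lay above every mouse spleen for 33 genes (36.4% of all genes) and below for 12 (36.2%).

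**Figure D1:**
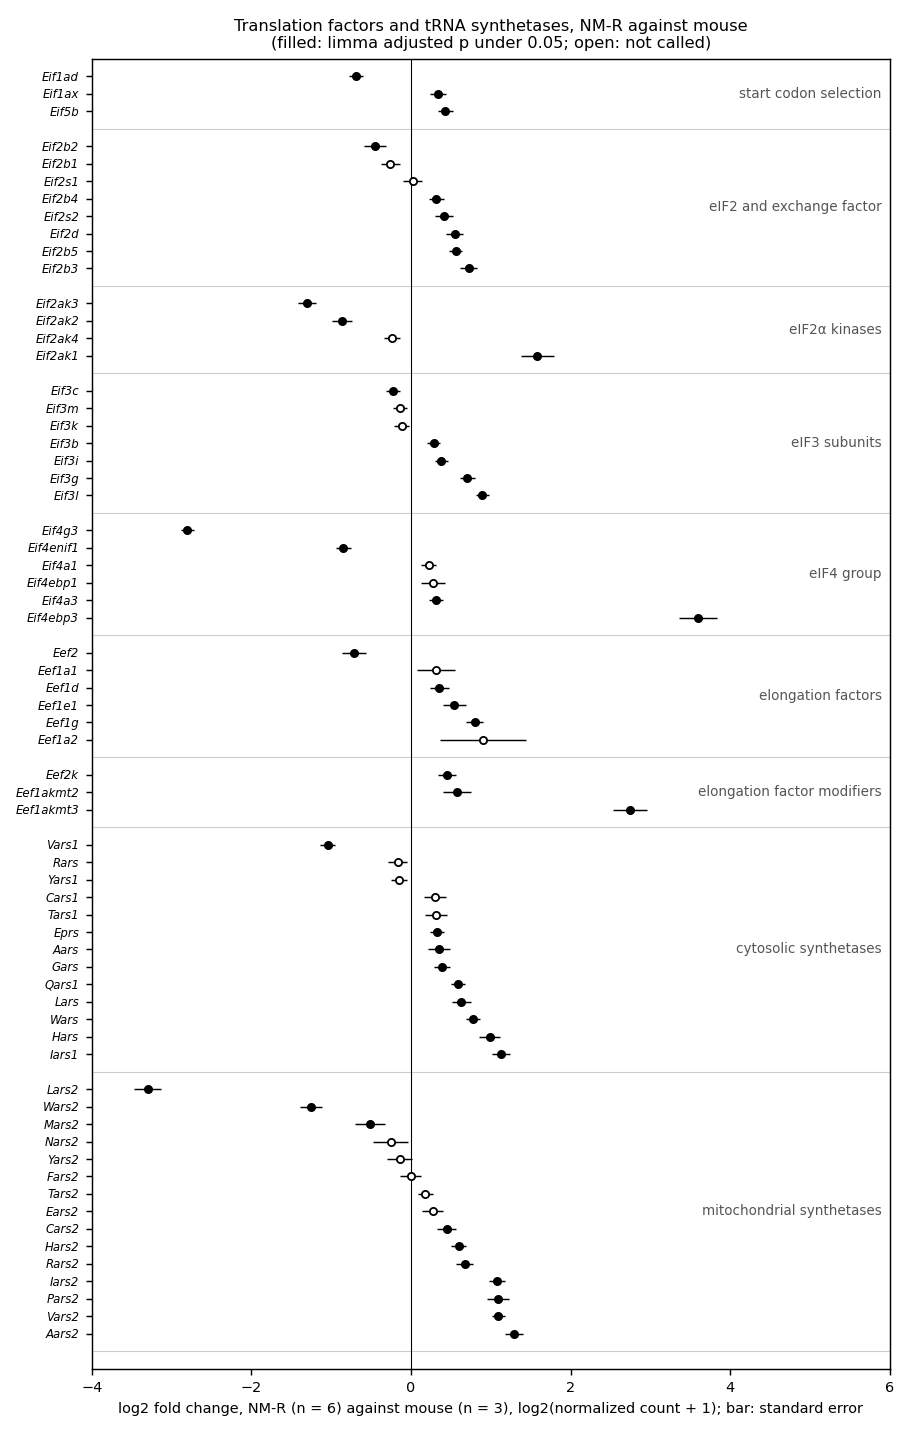
Log2 fold change of 65 of the 66 genes, NM-R (n = 6) against mouse (n = 3), grouped by role, on the log2(normalized count + 1) scale; points are the fitted difference, bars its standard error, and filled points have a limma adjusted p under 0.05. The differences reach from -3.30 (Lars2) to 3.60 (Eif4ebp3), and 44 of the 65 points lie to the right of 0.

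The 66 genes held a like share of the normalized counts in both species, 2.37% to 2.54% in the mice and 2.31% to 2.71% in the NM-Rs. Most of that share came from the elongation factors, with 1.69% to 1.77% in mice and 1.59% to 1.94% in NM-Rs. Levels per length could be set for the 58 genes whose symbol matched the mouse annotation of mm9, as normalized counts in mice per kb of exon. On this scale Eef1a1 had the highest level (52101), followed by Eef2 (18402), Eef1g (3034) and Eif3k (2320.2), and Eef1a2 had the lowest (5.73).

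The kinases of eIF2 differed in opposite directions. Eif2ak1 encodes the haem-regulated kinase of red cell precursors and lies on bases 144578657 to 144665125 of chromosome 5 in mm9. It had 1523, 2521 and 3083 normalized counts in mice, 8285, 6399 and 6005 in ssNM-Rs and 6617, 7974 and 6089 in lsNM-Rs. All 6 NM-R spleens lay above all mice, the mean was 2.90-fold higher in NM-Rs (log2 fold change 1.58 ± 0.21 SE, adjusted p = 5.75e-05 in limma), and mouse 1 was the lowest spleen. Mouse 1 was also the lowest mouse for all 11 erythroid markers, whose summed level was 25171 normalized counts there and up to 72982 in the other mice, compared to 154650 to 224330 in NM-Rs. Gata1, the erythroid transcription factor, was at 304, 789 and 1053 in mice and 4061 to 5795 in NM-Rs, and 0 of the 11 markers were at 0 throughout a species. Without mouse 1 the log2 fold change of Eif2ak1 was 1.29 (limma adjusted p = 0.000121). In mm9 the gene shares 487 exonic bases (8.6%) with Aimp2 and 172 (3.0%) with Ankrd61, both on the opposite strand. Their part in the mouse counts was not tested.

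Eif2ak3 encodes PERK, the kinase of the endoplasmic reticulum that responds to unfolded proteins, and lies on bases 70794509 to 70855239 of chromosome 6 in mm9. Its values were 1596, 1336 and 1165 normalized counts in mice, 500.5, 510.4 and 506 in ssNM-Rs and 662, 528 and 609.5 in lsNM-Rs. The groups did not overlap, and the gene was lower in NM-Rs (log2 fold change -1.30 ± 0.11 SE, adjusted p = 2.69e-06 in limma), 2.47-fold as a ratio of means. Eif2ak2, which encodes PKR, a kinase activated by double-stranded RNA and induced by interferon, was also lower, with 953 to 978 normalized counts in mice and 437 to 650.1 in NM-Rs (log2 fold change -0.86 ± 0.13 SE, adjusted p = 1.43e-04 in limma). Eif2ak4, the gene of GCN2, which senses uncharged tRNA, had 832, 785 and 721 normalized counts in mice, 671, 682 and 539 in ssNM-Rs and 715, 716 and 655 in lsNM-Rs. Each NM-R value lay below each mouse value, but the difference missed the threshold (log2 fold change -0.24 ± 0.10 SE, adjusted p = 0.0515 in limma), which it passed with equal totals (adjusted p = 0.0173) and with a depth term (adjusted p = 0.0296).

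**Figure D2:**
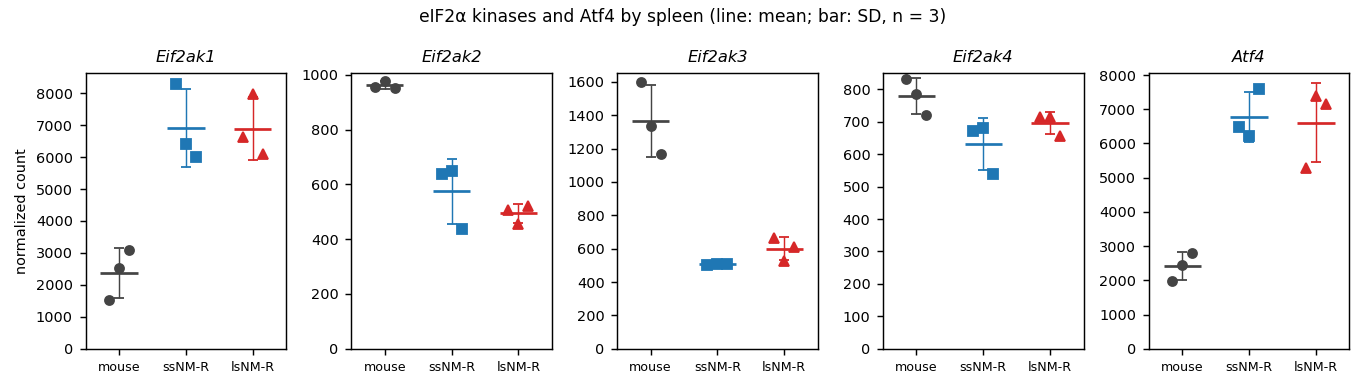
Normalized counts of the 4 eIF2α kinase genes and of Atf4 in each spleen of mice, ssNM-Rs and lsNM-Rs; 1 point per spleen, horizontal lines are group means and bars the SD (n = 3). Eif2ak1 and Atf4 are higher in every NM-R spleen than in every mouse spleen, and Eif2ak2 and Eif2ak3 are lower.

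Genes of the integrated stress response, which acts downstream of these kinases, split between directions. Of 26 genes on the list 20 were in the table, of which 7 were higher (39.7% of all genes) and 7 lower (38.8%) in NM-Rs. Atf4, the transcription factor of the response, had 1993, 2448 and 2813 normalized counts in mice, 6471, 6223 and 7599 in ssNM-Rs and 5274, 7386 and 7156 in lsNM-Rs, and was higher in NM-Rs (log2 fold change 1.47 ± 0.15 SE, adjusted p = 6.97e-06 in limma). Several of its known targets were higher as well: Asns (asparagine synthetase, log2 fold change 1.84), Trib3 (2.05), Stc2 (1.83) and Pck2 (1.70). Others were lower, among them Slc7a11 (the cystine transporter, -4.32), Nupr1 (-4.22) and Bcat1 (-0.77). Ppp1r15b, the constitutive regulator of the phosphatase that reverses eIF2α phosphorylation, was lower (-0.55), while its inducible counterpart Ppp1r15a had 881, 2142 and 2926 normalized counts in mice and 2573 to 3260 in NM-Rs and did not pass the threshold (limma adjusted p = 0.0528). Between the cohorts 0 of the 20 genes passed it in limma.

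The subunits of eIF2 itself came next. Eif2s1, the gene of eIF2α, was not called and had 967 to 1170.3 normalized counts in mice and 945 to 1371 in NM-Rs, with lsNM-R 4 highest (log2 fold change 0.02 ± 0.12 SE, adjusted p = 0.883 in limma). Eif2s2, the gene of the beta subunit, was higher in NM-Rs, at 1369 ± 119 in mice and 1831 ± 215 in NM-Rs (SD, n = 3 and 6; log2 fold change 0.42 ± 0.11 SE, adjusted p = 0.00683 in limma). The group held 8 genes of eIF2, its exchange factor eIF2B and the related initiation factor Eif2d. Of these, 5 were higher in NM-Rs (39.7% of all genes), 1 was lower (38.8%) and 2 were not called.

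The exchange factor eIF2B is made of subunits alpha to epsilon, encoded by Eif2b1 to Eif2b5, which moved apart. Eif2b5, the catalytic subunit, on bases 20498890 to 20510028 of chromosome 16 in mm9, had 925, 953 and 966 normalized counts in mice, 1582, 1578 and 1415 in ssNM-Rs and 1306, 1367 and 1178 in lsNM-Rs. Every NM-R value exceeded every mouse value (log2 fold change 0.56 ± 0.08 SE, adjusted p = 1.01e-04 in limma). Eif2b3, its partner in the catalytic subcomplex, showed the highest fold change of the group, from 233 to 255 in mice to 357 to 456 in NM-Rs (log2 fold change 0.72 ± 0.11 SE, adjusted p = 1.44e-04 in limma), and Eif2b4, of the regulatory subcomplex, was higher by 0.32 on the log2 scale (limma adjusted p = 0.0106). The other regulatory subunits lay on the opposite side. Eif2b2 was lower (747 ± 13.0 in mice, 554 ± 111 in NM-Rs; log2 fold change -0.45 ± 0.14 SE, adjusted p = 0.0130 in limma), although ssNM-R 2 at 733 almost reached the lowest mouse at 734, and Eif2b1 was not called (log2 fold change -0.26 ± 0.12 SE, adjusted p = 0.0665 in limma). Eif2d, which can place the initiator tRNA without eIF2, was higher (0.55, limma adjusted p = 9.85e-04).

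The class of start codon selection held 3 genes, which were grouped by symbol. Eif5b, the GTPase that joins the ribosomal subunits, was higher in all NM-R spleens, with 2036 to 2131 normalized counts in mice and 2503 to 3279 in NM-Rs (log2 fold change 0.43 ± 0.10 SE, adjusted p = 0.00206 in limma), and shares 1239 exonic bases (15.9%) with Rev1 on the opposite strand in mm9. Eif1ax, which helps the ribosome scan for the start codon, was higher by 0.34 (limma adjusted p = 0.0131), but the species overlapped and the call was lost without mouse 1 (adjusted p = 0.0644) and without mouse 2 (adjusted p = 0.0511). Eif1ad, named for a domain like that of eIF1A, was lower in NM-Rs, at 844, 844 and 883 in mice and 484 to 606 in NM-Rs (log2 fold change -0.69 ± 0.09 SE, adjusted p = 5.33e-05 in limma).

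Of the eIF3 complex, the large scaffold between the ribosome and the mRNA, 7 subunits were listed. Compared to mice, Eif3l, Eif3g, Eif3i and Eif3b were higher in NM-Rs, Eif3c was lower, and Eif3k and Eif3m were not called. Eif3l showed the strongest difference, with 2098, 2274 and 2435 normalized counts in mice, 4541, 4359.8 and 4169.6 in ssNM-Rs and 4243, 4021 and 3922 in lsNM-Rs. The NM-R mean was 1.86-fold that of mice and no spleens overlapped (log2 fold change 0.89 ± 0.08 SE, adjusted p = 3.29e-06 in limma). Eif3k, whose product pairs with that of Eif3l at the edge of the complex, had 2492 ± 319 in mice and 2298 ± 252 in NM-Rs (SD, n = 3 and 6), so the spread covered the difference (log2 fold change -0.12 ± 0.09 SE, adjusted p = 0.269 in limma). Eif3g and Eif3i, which form a module with Eif3b, were higher by 0.71 and 0.38 on the log2 scale (limma adjusted p = 5.98e-05 and 0.00188), and Eif3b itself by 0.28 (limma adjusted p = 0.0116). The lower value of Eif3c was small (log2 fold change -0.23 ± 0.09 SE, adjusted p = 0.0316 in limma) and depended on the scaling, since it became -0.13 with an adjusted p of 0.151 when the spleens were scaled to the same upper quartile.

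The eIF4 group held the most divergent factors. Eif4g3, on bases 137548937 to 137764423 of chromosome 4 in mm9, encodes a scaffold that links the cap-binding protein to the helicase. Its counts were 4140.1, 3673 and 3462 normalized counts in mice, 505, 469.9 and 464 in ssNM-Rs and 578, 616 and 604 in lsNM-Rs. The mouse mean was 6.97 times that of NM-Rs, with no overlap (log2 fold change -2.80 ± 0.08 SE, adjusted p = 2.11e-09 in limma). Eif4ebp3, on bases 36823714 to 36825571 of chromosome 18 in mm9, encodes a repressor that binds eIF4E. It had only 23.1, 10.9 and 22.0 normalized counts in mice, which stand for 23, 10 and 21 reads, and 246, 236 and 279 in ssNM-Rs and 178, 229 and 201 in lsNM-Rs. The mean was 12.2-fold higher in NM-Rs (log2 fold change 3.60 ± 0.23 SE, adjusted p = 3.33e-07 in limma). In the mouse annotation 67.3% of the exonic bases of Eif4ebp3 (501 bases) are shared with Ankhd1 on the same strand, and its part in the low mouse counts was not tested.

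The other members of the group differed less. Eif4enif1, whose product carries eIF4E into the nucleus and into RNA granules, was lower in NM-Rs (1479 to 1637 in mice, 784 to 1009 in NM-Rs; log2 fold change -0.85 ± 0.10 SE, adjusted p = 2.00e-05 in limma). Eif4a1, the helicase that unwinds mRNA leaders, had 6877 ± 559 in mice and 8012 ± 589 in NM-Rs (SD, n = 3 and 6) and was not called (log2 fold change 0.22 ± 0.10 SE, adjusted p = 0.0644 in limma), although it was in DESeq2 (adjusted p = 0.0327) and with upper quartile scaling (adjusted p = 0.0118). Its relative Eif4a3, which marks exon junctions, was higher by 0.31 (limma adjusted p = 0.00927), with overlapping spleens. Eif4ebp1, the repressor controlled by the mTOR kinase, had 284, 362 and 401 in mice and 323 to 487 in NM-Rs and was not called (log2 fold change 0.27 ± 0.15 SE, adjusted p = 0.116 in limma).

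Of the 6 elongation factors 3 were higher in NM-Rs (39.7% of all genes), 1 was lower (38.8%) and 2 were not called. The lower one was Eef2, which encodes the translocase of the ribosome, lies on bases 80639376 to 80645252 of chromosome 10 in mm9 and had 55599, 56673 and 58756 normalized counts in mice, 38702, 38114 and 34444 in ssNM-Rs and 36660.1, 32779 and 28679.9 in lsNM-Rs. All NM-R spleens lay below all mice (log2 fold change -0.72 ± 0.15 SE, adjusted p = 0.00131 in limma), and the ratio of means was 1.63. In mm9 27.7% of the exonic 32-mers of Eef2 occur more than once. Eef2k, the kinase that phosphorylates and inhibits eEF2, was higher in NM-Rs, at 802 to 985 in mice and 1007 to 1393 in NM-Rs (log2 fold change 0.45 ± 0.12 SE, adjusted p = 0.00461 in limma). In mm9 1781 of its exonic bases (24.9%) are shared with another gene entry of the same symbol on the same strand, whose part in the mouse counts was not tested.

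Eef1a1, which encodes the protein that brings the tRNAs to the ribosome, had 125199, 131409 and 133056 normalized counts in mice, 180776, 164424 and 157390 in ssNM-Rs and 176407, 155489 and 138102 in lsNM-Rs. The species did not overlap, yet the difference was not called (log2 fold change 0.31 ± 0.24 SE, adjusted p = 0.248 in limma). Its call depended on the method. It was higher without a variance trend (SE 0.10, adjusted p = 0.0232 in limma) and in DESeq2 (adjusted p = 0.00258). Quantile normalization turned the value to -0.43 (adjusted p = 0.0301 in limma). In the mouse genome 58.1% of its exonic 32-mers occur more than once. Eef1a2, the form known from muscle and nerve, was near the lower limit of the data, with 5 to 40 reads per library (0.90, limma adjusted p = 0.149).

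The genes of the exchange factor of eEF1A were higher in NM-Rs. Eef1g had 7073, 7940.4 and 8656 normalized counts in mice, 13932, 13761 and 16060.2 in ssNM-Rs and 12028, 12984 and 13548 in lsNM-Rs. Its mean was 1.74-fold higher in NM-Rs without overlap (log2 fold change 0.80 ± 0.11 SE, adjusted p = 7.47e-05 in limma), and 47.4% of its exonic 32-mers in mm9 are repeated. Eef1d was higher by 0.36 (limma adjusted p = 0.0224), a call lost without mouse 1 (adjusted p = 0.110) and without mouse 2 (adjusted p = 0.0519). Eef1e1, whose product is part of the multi-synthetase complex, was higher by 0.54 (limma adjusted p = 0.00615).

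All 3 modifiers of elongation factors were higher in NM-Rs (39.7% of all genes were). Besides Eef2k these were methyltransferases of eEF1A. Eef1akmt3 had 9.03, 10.9 and 7.34 normalized counts in mice, from 7 to 10 reads per library, and 53.7 to 85.3 in NM-Rs (log2 fold change 2.74 ± 0.21 SE, adjusted p = 1.22e-06 in limma). Eef1akmt2 had 121 to 152 and 162 to 246 (log2 fold change 0.58 ± 0.18 SE, adjusted p = 0.0130 in limma), a call lost without mouse 2 (adjusted p = 0.0666).

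Other translation factors outside the naming rule gave a mixed picture. Of 27 genes on the list 17 were in the table, and 4 were higher (39.7% of all genes) and 8 lower (38.8%) in NM-Rs. Enzymes of diphthamide synthesis, which modify eEF2, differed strongly in both directions. Dph1 had 159 to 235 normalized counts in mice and 823 to 939 in NM-Rs (log2 fold change 2.19), while Dph3 had 373 to 400.01 and 67.6 to 90.4 (-2.27) and Dph5 439 to 509.7 and 39.8 to 76.3 (-2.95). Dohh, which completes the hypusine of eIF5A, was lower (-0.92), and Larp1, a regulator of mRNAs of the translation machinery, was higher (0.64).

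Of the 13 cytosolic synthetases 8 were higher in NM-Rs (39.7% of all genes), 1 was lower (38.8%) and 4 were not called. Iars1, the isoleucine enzyme, led with 1434, 1721 and 1646 normalized counts in mice, 4068, 3438 and 3074 in ssNM-Rs and 3145, 3965 and 3343 in lsNM-Rs. All NM-R values were above those of mice, 2.19-fold as a ratio of means (log2 fold change 1.13 ± 0.12 SE, adjusted p = 9.50e-06 in limma). Wars, the tryptophan enzyme, which interferon induces, had 1075, 1149 and 1185 normalized counts in mice, 2014, 2045 and 2375 in ssNM-Rs and 1692, 1799 and 1830.4 in lsNM-Rs. It was higher in every NM-R spleen (log2 fold change 0.78 ± 0.08 SE, adjusted p = 1.11e-05 in limma). Hars, the histidine enzyme, was higher as well (log2 fold change 0.99 ± 0.13 SE, adjusted p = 7.27e-05 in limma), but shares 195 exonic bases with Hars2 on the opposite strand in mm9, and whether reads were counted by strand is not stated in the sources used here.

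Several of the higher enzymes belong to the multi-tRNA synthetase complex. Lars was at 1179 to 1257 normalized counts in mice and 1571 to 2375 in NM-Rs (log2 fold change 0.63 ± 0.12 SE, adjusted p = 7.64e-04 in limma). Qars1 was higher by 0.59 and Eprs by 0.33 on the log2 scale (limma adjusted p = 1.15e-04 and 0.00728). Rars, another enzyme of the complex, was not called, with 880.4 ± 32.0 in mice and 790.3 ± 106 in NM-Rs (SD, n = 3 and 6; log2 fold change -0.17 ± 0.12 SE, adjusted p = 0.231 in limma). Outside the complex, Gars, which charges glycine tRNAs in both compartments, was higher by 0.39 (limma adjusted p = 0.00552). Aars was higher by 0.35 (limma adjusted p = 0.0400), and this call was lost without mouse 1 (adjusted p = 0.178), without mouse 2 (adjusted p = 0.0664) and without any 1 of the ssNM-Rs (adjusted p = 0.0551 to 0.0652), and also with equal totals (adjusted p = 0.0653) and without a variance trend (adjusted p = 0.0670). Cars1, Tars1 and Yars1 did not pass the threshold (limma adjusted p = 0.0759, 0.0562 and 0.195). Tars1 was called higher in edgeR (adjusted p = 0.0407) and in DESeq2 (adjusted p = 0.0436), and both Tars1 and Cars1 were with upper quartile scaling (adjusted p = 0.0186 and 0.0240) and with quantile normalization (adjusted p = 0.0225 and 0.0246).

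The 1 cytosolic synthetase that was lower in NM-Rs was Vars1, the valine enzyme. It had 5511, 5469 and 6439.9 normalized counts in mice, 3069, 2935 and 3309 in ssNM-Rs and 2367, 2761 and 2517 in lsNM-Rs. No NM-R spleen reached the mouse range, and the mouse mean was 2.05 times that of NM-Rs (log2 fold change -1.04 ± 0.09 SE, adjusted p = 2.87e-06 in limma). Within NM-Rs the 3 lsNM-R values lay below the 3 ssNM-R values.

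Among the 16 mitochondrial synthetases, 8 were higher (39.7% of all genes), 3 lower (38.8%) and 5 not called. Lars2, on bases 123276058 to 123371782 of chromosome 9 in mm9, showed the largest difference of all 66 genes toward lower levels. It had 5354, 4928 and 8888 normalized counts in mice, 686, 643 and 662 in ssNM-Rs and 623, 635 and 526 in lsNM-Rs. The mouse mean was 10.2 times that of NM-Rs (log2 fold change -3.30 ± 0.17 SE, adjusted p = 7.40e-08 in limma), and mouse 3 stood above the other mice. In mm9 225 exonic 32-mers of Lars2, or 6.97%, occur more than once, all of them in its last exon between 123370918 and 123371301, and their part in the mouse counts was not tested. Wars2, the tryptophan enzyme of mitochondria, was lower as well, with 236 to 264 normalized counts in mice and 89.7 to 134 in NM-Rs (log2 fold change -1.26 ± 0.14 SE, adjusted p = 1.47e-05 in limma). Mars2 was lower by a smaller amount (log2 fold change -0.52 ± 0.19 SE, adjusted p = 0.0291 in limma), and the call was lost without mouse 1 (adjusted p = 0.0811), mouse 2 (adjusted p = 0.111), lsNM-R 4 (adjusted p = 0.0526) or lsNM-R 5 (adjusted p = 0.0565), with upper quartile scaling (adjusted p = 0.0599) and with quantile normalization (adjusted p = 0.121).

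The higher mitochondrial enzymes were led by Aars2, the alanine enzyme, on bases 45643790 to 45657791 of chromosome 17 in mm9. Its values were 279, 266 and 307 normalized counts in mice, 855, 763 and 672 in ssNM-Rs and 706, 628 and 580.04 in lsNM-Rs. The NM-R mean was 2.46-fold that of mice (log2 fold change 1.29 ± 0.11 SE, adjusted p = 2.05e-06 in limma), and the cohorts overlapped. Vars2, the valine enzyme, had 493 to 532 in mice and 1027 to 1222 in NM-Rs (log2 fold change 1.10 ± 0.08 SE, adjusted p = 8.49e-07 in limma). Similar differences were found for Pars2 (1.09) and Iars2 (1.07, with 2018 exonic bases in mm9 shared with Rab3gap2 on the opposite strand), and smaller ones for Rars2 (0.67), Hars2 (0.60) and Cars2 (0.45), all with a limma adjusted p of at most 0.00493. Every NM-R spleen lay above every mouse spleen for each of these 7 genes. Fars2, the phenylalanine enzyme, had nearly equal means, 238 in mice and 239 in NM-Rs (limma adjusted p = 0.977). Ears2, Nars2, Tars2 and Yars2 were not called either (limma adjusted p from 0.0813 to 0.427).

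For 10 amino acids both the cytosolic and the mitochondrial enzyme were listed, and their ratio was formed within each spleen. As counts are not divided by length, only the difference of this log2 ratio between species can be read. The species did not overlap for 5 of the 10 pairs, with a ratio higher in NM-Rs for 2 and lower for 3. Over all single genes, every NM-R spleen lay above every mouse for 36.4% and below for 36.2%. Pairs of other genes were not formed, so the count does not set the synthetases apart. The leucine pair differed most: log2 of Lars over Lars2 lay between -2.91 and -2.00 in mice and between 1.33 and 1.90 in NM-Rs, a difference of 3.93 between the fitted changes. For tryptophan the ratio lay between 2.02 and 2.32 in mice and between 3.93 and 4.58 in NM-Rs. The valine pair went the other way, from 3.37 to 3.71 in mice and from 0.95 to 1.61 in NM-Rs, as Vars1 was lower and Vars2 higher. Alanine and arginine followed with differences of -0.94 and -0.84. For isoleucine both enzymes were higher by about the same amount, 1.13 and 1.07 on the log2 scale, and the ratios overlapped.

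**Figure D3:**
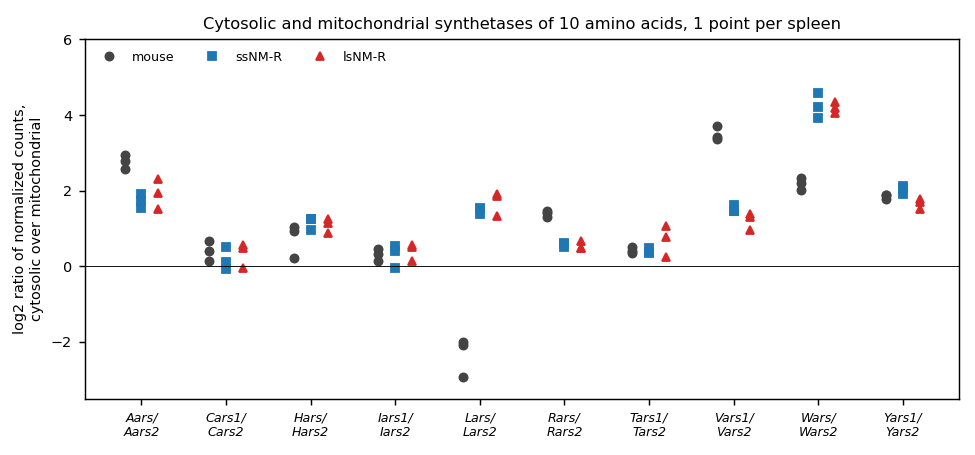
Log2 ratio of the normalized counts of the cytosolic over the mitochondrial synthetase for 10 amino acids, with 1 point per spleen of mice, ssNM-Rs and lsNM-Rs; counts are not divided by gene length. The species are apart for Aars/Aars2, Lars/Lars2, Rars/Rars2, Vars1/Vars2 and Wars/Wars2, and the Lars/Lars2 ratio is below 0 in mice alone.

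Of 11 listed partners of the synthetases 8 were in the table, and 6 were higher and 0 lower in NM-Rs, where 39.7% of all genes were higher and 38.8% lower. The higher ones included Farsa (0.47) and Farsb (0.43), the subunits of the cytosolic phenylalanine enzyme, and Aimp1 (0.26) and Aimp2 (0.64), scaffolds of the multi-synthetase complex. Gatb, a subunit of the mitochondrial amidotransferase that makes glutaminyl-tRNA, had 203 to 229.8 normalized counts in mice and 678 to 935 in NM-Rs (log2 fold change 1.85 ± 0.12 SE, adjusted p = 2.54e-07 in limma), whereas Gatc and Qrsl1 of the same enzyme were not called (limma adjusted p = 0.322 and 0.0820).

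Of the factors that translate mitochondrial mRNAs, 9 of 11 were in the table, with 4 higher (39.7% of all genes) and 2 lower (38.8%) in NM-Rs. The elongation factor Tufm had 928 to 1084 normalized counts in mice and 1745 to 2196 in NM-Rs (0.97), and its exchange factor Tsfm was higher by 1.23. The ribosome recycling factor Mrrf (1.65) and the release factor Mtrf1 (1.42) were also higher. The initiation factor Mtif3 (-1.05) and the recycling factor Gfm2 (-0.35) were lower. Between the cohorts 0 genes of either list passed the threshold in limma.

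Atf4 acts through a DNA element shared with C/EBP proteins, and the mouse promoters of these genes were searched for its letters, TGATGNAA, on both strands from 250 bases before to 50 bases after the annotated gene start in mm9. A match was found for 2 of the 58 matched genes (3.45%), compared to 3.65% of 22220 protein-coding genes. The match of Gars lies 30 bases before its start and is shown because Gars is the synthetase that holds one (chr6:54987954-54987983, plus strand, the motif on the opposite strand in capitals):
Gars: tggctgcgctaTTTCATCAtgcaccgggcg
The other match belongs to Eif4ebp3. A match is a description of the letters, and NM-R promoters were not analysed here.

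Each cohort was also compared with the mice on its own, with the same 3 mice in both comparisons. In ssNM-Rs 36 genes were higher (38.0% of all genes) and 11 lower (37.5%), and in lsNM-Rs 32 were higher (38.1%) and 12 lower (37.0%). Calls common to both cohorts were not counted over all genes, so the following counts do not set these genes apart. Of the genes described here, 31 were higher and 9 lower in both cohorts, 15 were called in neither and 11 in one cohort alone. The last group was Eif1ax, Eif2b1, Eif2b2 and Eif3c, called in lsNM-Rs, and Eif2b4, Eif2ak4, Eif4a3, Eef1a2, Eef1d, Mars2 and Tars2, called in ssNM-Rs. None of these 11 differed between the cohorts past the threshold in limma. For Eif2b2 the log2 fold changes were -0.32 in ssNM-Rs (limma adjusted p = 0.0991) and -0.59 in lsNM-Rs (limma adjusted p = 0.00757), and for Eif4a3 they were 0.44 and 0.19 (limma adjusted p = 0.00330 and 0.130).

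To see whether spleen size went with a difference, lsNM-Rs were compared with ssNM-Rs. No gene of the 66 passed the threshold in limma (0 called, with 0.0% of all genes called), nor did any in the edgeR or the DESeq2 test, although DESeq2 called 54 genes of the whole table. The smallest limma adjusted p was 0.442, for Eif4g3, compared to 0.429 over all genes. Before adjustment 7 genes had a p under 0.05 in limma (8.79% of all genes), 1 higher (5.24%) and 6 lower (3.55%) in lsNM-Rs. In edgeR 7 had one and in DESeq2 6, where 1106 and 1117 of all 12946 genes did. The limma count was 2 without lsNM-R 5, 3 without ssNM-R 2 and 3 without ssNM-R 3 (1041, 1290 and 1070 of all genes). It was 9 without ssNM-R 6, 8 without lsNM-R 1 and 7 without lsNM-R 4 (1165, 1276 and 961 of all genes). Without mouse 1, 2 or 3 it was 7, 5 and 7 (1096, 876 and 1038 of all genes). With a depth term, for the deeper libraries of ssNM-R 6, lsNM-R 4 and lsNM-R 5, it was 6 (1669 of all genes). The cohorts did not overlap for 15 genes (13.1% of all genes), of which 3 were above (6.84%) and 12 below (6.23%) in lsNM-Rs. For 65 of the 66 genes the difference was smaller than 0.5 on the log2 scale.

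The 5 genes with the smallest unadjusted p were Eif4g3, Wars, Eif2b5, Vars1 and Eif3k. Eif4g3 was at 505, 469.9 and 464 normalized counts in ssNM-Rs and 578, 616 and 604 in lsNM-Rs, so all 3 lsNM-Rs were higher (log2 difference 0.32 ± 0.09 SE, adjusted p = 0.442 in limma). This difference was small beside that from mice, which had 3462 to 4140.2. Wars had 2014, 2045 and 2375 in ssNM-Rs and 1692, 1799 and 1830.4 in lsNM-Rs, all lower (log2 difference -0.27 ± 0.09 SE, adjusted p = 0.488 in limma). Eif2b5, with 1582, 1578 and 1415 and 1306, 1367 and 1178, differed by -0.25, and Vars1, whose values are given above, by -0.29 (adjusted p = 0.519 and 0.520 in limma). Eif3k had 2565, 2521 and 2465 and 2068, 2197 and 1972 (log2 difference -0.28 ± 0.11 SE, adjusted p = 0.534 in limma). All 5 missed the threshold.

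**Figure D4:**
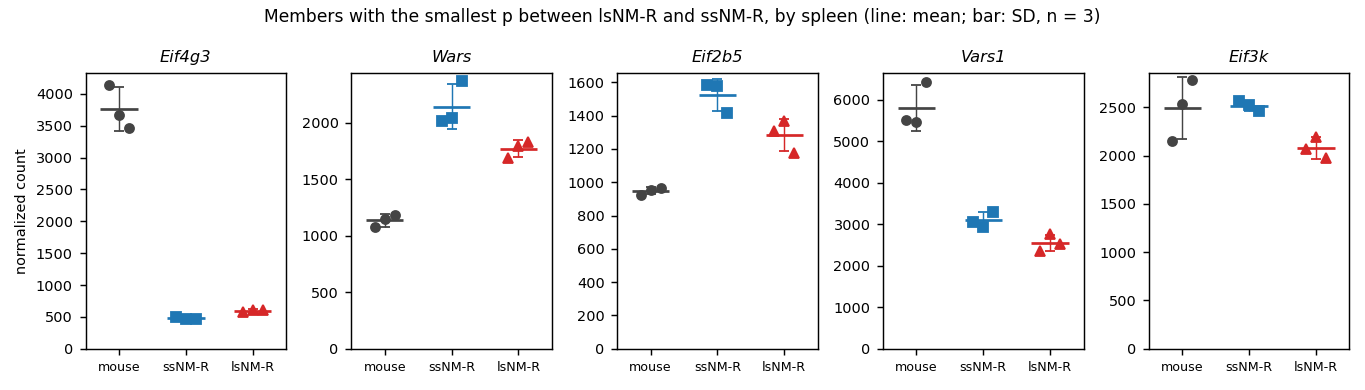
Normalized counts by spleen of the 5 genes with the smallest unadjusted p between lsNM-R and ssNM-R; 1 point per spleen, horizontal lines are group means and bars the SD (n = 3). The lsNM-R points of Eif4g3 lie above and those of Wars, Eif2b5, Vars1 and Eif3k below the ssNM-R points, and for Eif4g3, Wars, Eif2b5 and Vars1 the distance between the cohorts is smaller than that from the mice.

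By class, the differences between cohorts lay on both sides of 0, and none passed the threshold. Over all 66 genes 44 were below 0 in lsNM-Rs and 22 above, compared to 6209 below and 6588 above among the 12946 genes, and the median was -0.08, compared to 0.0054 over all genes. All 7 eIF3 subunits had a value below 0, from -0.28 (Eif3k) to -0.07 (Eif3b), as had 5 of 6 elongation factors, 6 of 8 genes of eIF2 and its exchange factor, 4 of 6 of the eIF4 group, 10 of 13 cytosolic synthetases and 9 of 16 mitochondrial synthetases. In contrast, 3 of 4 eIF2α kinases, 2 of 3 genes of start codon selection and 2 of 3 modifiers of elongation factors lay above 0. Eef1a2 had the largest difference (log2 difference -1.50 ± 0.62 SE, adjusted p = 0.549 in limma), at 32.8, 51.0 and 25.3 in ssNM-Rs and 31.1, 7.05 and 6.90 in lsNM-Rs, where lsNM-R 4 and lsNM-R 5 were low and lsNM-R 1 lay within the ssNM-R range. It was also lower in the 3 deeper libraries (log2 difference -1.34, adjusted p = 0.287 in limma), and the part of the depth was not tested further.

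Single NM-R spleens stood at either end of the range more often than they did over all genes. The spleen of lsNM-R 4, the female, was the highest of the 6 NM-R spleens for 27 of the 66 genes (17.3% of all genes) and the lowest for 0 (15.2%). In contrast, lsNM-R 1 was the lowest for 24 (14.9%) and lsNM-R 5 for 26 (15.9%), and ssNM-R 2 was the highest for 19 (18.5%). Of the cytosolic synthetases 8 of 13 were highest in lsNM-R 4 and 10 of 13 lowest in lsNM-R 1. For the 29 synthetases the median deviation from the NM-R mean was 0.14 in lsNM-R 4 and -0.17 in lsNM-R 1 on the log2 scale. Tars1, the threonine enzyme, had 1119.96, 1102 and 1306 in ssNM-Rs and 999, 1577 and 1277 in lsNM-Rs, and Aars had 2482, 2524 and 2511 and 2007, 3112 and 2239, so that the cohort of lsNM-Rs held both the highest and the lowest spleen. The eIF3 subunits were all 7 lowest in lsNM-R 5. Of the 11 erythroid markers 8 were also highest in lsNM-R 4. Sex and animal cannot be told apart here, since there was 1 female.

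**Figure D5:**
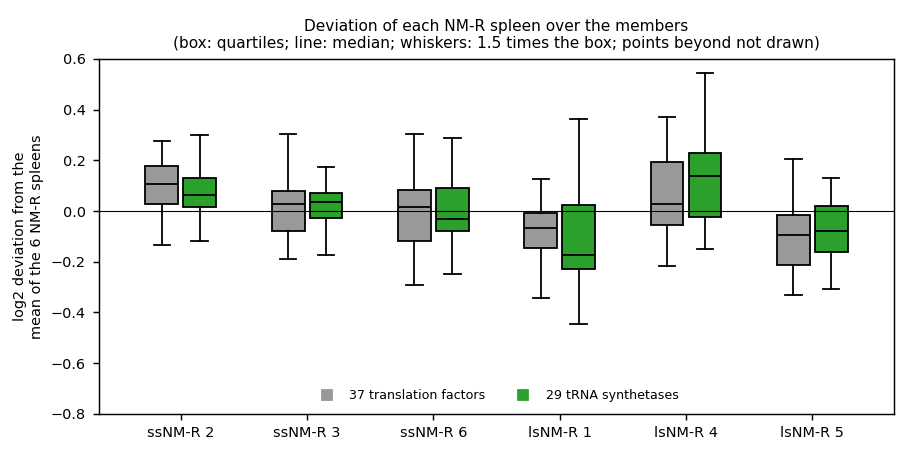
Log2 deviation of each NM-R spleen from the mean of the 6 NM-R spleens, over 37 translation factors and 29 tRNA synthetases; boxes span the quartiles, lines are medians, whiskers reach 1.5 times the box and points beyond are not drawn. For synthetases the median is highest in lsNM-R 4 (0.14) and lowest in lsNM-R 1 (-0.17).

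The 3 deeper and the 3 shallower NM-R libraries were also compared, in a fit that kept a mean for each group. Between them 0 of the 66 genes passed the threshold in limma (0.0% of all genes), and 6 were lower (8.44% of all genes) and 2 higher (6.47%) in the 3 deeper libraries at an unadjusted p under 0.05. These were Eif2b2, Eif2ak2, Eef1a2, Aars2, Cars2 and Mars2, and Eif2s2 and Tars1. Among the mice, mouse 1 was the lowest for 43 of the 66 genes (38.4% of all genes). Without mouse 1, 33 genes were higher and 11 lower in NM-Rs, and without lsNM-R 4 the counts were 36 and 12. Over all genes, 10158 were called in either direction with all spleens, 9656 without mouse 1 and 9993 without lsNM-R 4.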

How the data were processed

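Spleen RNA of 3 mice, 3 ssNM-Rs and 3 lsNM-Rs was analysed from 1 table over all 9 libraries, and groups were taken from the sample titles and the spleen size in the labels. The signal values deposited by the authors are read counts per gene divided by 1 DESeq2 size factor per library over both species. The authors aligned reads to mm9 or to the NM-R genome with STAR 2.5.3a, counted them with htseq-count 0.10.0 and gave NM-R genes the names of mouse homologues. Dividing by the value of 1 read gave whole reads (within 0.01) for 100% of the values, which recovered the reads. The methods and the labels differ on the instrument, the library kit and the RNA kit.

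The main test was limma 3.58.1 (R 4.3.3) on log2(normalized count + 1). The model held a mean for each of the 3 groups and a variance trend, tests were 2-sided, and p-values of the 12946 genes were adjusted by Benjamini-Hochberg (threshold 0.05). NM-R means the mean of both cohorts, and ratios are those of group means. The fit was tested on simulated data. Alternatives were other pseudocounts, scalings and filters, the edgeR 4.0.16 quasi-likelihood test and DESeq2 1.42.0 on recovered reads, a depth term, a block by replicate number, and fits that left out 1 spleen. Standard errors and p-values rest on the spread between animals within groups, drawn toward the variance trend fitted over all genes. Positions and exonic 32-mers (copies anywhere in the genome, either strand) were read from the mm9 annotation by mouse gene symbol, found for 58 of the 66 genes. Of these, 16 share exonic bases with another annotated gene, 4 on the same strand. Repeated 32-mers also made up 33.2% for Eif4a1, 25.6% for Eif3m, 24.9% for Eif4a3 and 22.3% for Eif2s1. They made up 18.9% for Eif4ebp1, 15.0% for Eif2ak2, 14.8% for Eif2s2 and 14.6% for Eif3c, and their part in the mouse counts was not tested.

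The members, their classes, the other gene lists and the tests were chosen with earlier results of these data known. Genes are named where they show the highest or lowest fold change of a class, were on a fixed list, or had 1 of the 5 smallest p between cohorts, and further members to complete their class. A member that is counted among the 66 genes is not reported here. Eif4e, Eif4ebp2, Eif4g1, Eif4a2, Eif5a, Eif6 and Mars were not analysed here.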

Additional observations from a re-analysis of the deposited data

Results flagged for a closer look

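Among the 6 NM-R spleens 1 spleen stood far from the others by Dixon's ratio of gap to range for 4 of the 66 genes, and chance flags about 1 in 20 groups. Eif2b1, the alpha subunit of the exchange factor eIF2B, had 459 normalized counts in ssNM-R 3, compared to 329 to 376 in the other NM-Rs, and without this spleen it was lower in NM-Rs than in mice (limma adjusted p = 0.0267). Eif2ak4, the kinase GCN2, had 539 in ssNM-R 6 and 655 to 716 in the others. Fars2, the mitochondrial phenylalanine enzyme, was lowest in lsNM-R 1 with 184, compared to 242 to 263. Yars2, the mitochondrial tyrosine enzyme, was highest in lsNM-R 4 with 277, compared to 152 to 191.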

How the results depend on the processing

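Of 1922 alternative values of 91 results, 1835 were rated as unchanged. For a single gene this means the same direction and the same side of the threshold. For a count of called genes it means a change of at most 1.5-fold. For a median it means the same sign and a shift below its SD between NM-R spleens. Of the 48 genes called between NM-R and mouse, 39 stayed called under every alternative. Between NM-R and mouse the number of higher genes ranged from 34 to 42 and of lower genes from 10 to 14, and with each spleen left out from 32 to 40 and from 10 to 14. For ssNM-Rs these left-out ranges were 31 to 38 and 9 to 12, for lsNM-Rs 25 to 35 and 10 to 13, and between the cohorts 0 in every case. Over all genes, 9456 to 10216 were called in either direction between NM-R and mouse with a spleen left out, compared to 10158 with all spleens. The median log2 fold change of the 66 genes was 0.43 with upper quartile scaling, against 0.33, while that of all genes became 0.10, and it lay between 0.26 and 0.41 with a spleen left out.

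Genes near 0 changed sign. Eif2s1 became -0.0329 with equal totals and ranged from -0.06 to 0.0913 with a spleen left out. Fars2 became 0.0902 with upper quartile scaling, 0.15 with quantile normalization, 0.0261 in edgeR and 0.007 in DESeq2, and ranged from -0.0609 to 0.0744 with a spleen left out. Quantile normalization also turned Yars2 to 0.0059 and Eef1a1 to -0.43. The cause of these changes was not tested.

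Other scalings, models or tests also made uncalled genes pass. Upper quartile scaling and quantile normalization did so for Tars1 (adjusted p = 0.0186 and 0.0225), Cars1 (0.0240 and 0.0246), Eif4ebp1 (0.0382 and 0.0359), Ears2 (0.0211 and 0.0148) and Tars2 (0.0148 and 0.0136), and upper quartile scaling for Eif4a1 (0.0118). Equal totals did so for Eif2b1 (0.0288) and Eif2ak4 (0.0173), and a depth term for Eif2ak4 (0.0296) and Tars1 (0.0133). Of the called genes, Aars lost its call with equal totals (0.0653) and without a variance trend (0.0670), Mars2 with upper quartile scaling (0.0599) and quantile normalization (0.121), and Eif3c with upper quartile scaling (0.151), without a variance trend (0.0510) and in edgeR (0.0590).

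Leaving out 1 spleen made some uncalled genes pass the threshold in limma. Without lsNM-R 1 these were Tars1 (adjusted p = 0.00717), Eif4ebp1 (0.0327), Eif4a1 (0.0474) and Cars1 (0.0479). Without mouse 3 they were Tars2 (0.0276), Cars1 (0.0393) and Eif2ak4 (0.0469), and Eif2ak4 also passed without ssNM-R 2 (0.0468) or ssNM-R 3 (0.0437). Eif3k passed without mouse 1 (0.0395), Yars1 without lsNM-R 4 (0.0437), Ears2 without lsNM-R 5 (0.0456) and Eif2b1 without ssNM-R 3 (0.0267). Eif3c lost its call without any 1 of the mice, ssNM-R 6, lsNM-R 1 or lsNM-R 5 (0.0502 to 0.0866).

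Replicate numbers of mice and NM-Rs share only a number, as same-numbered spleens did not deviate together (correlations 0.0101, -0.0045 and 0.00076). No mouse shares its number with lsNM-R 4, lsNM-R 5 or ssNM-R 6, so these spleens do not inform a fit with a replicate block. The lsNM-Rs rest on lsNM-R 1 alone in that fit, so its lost and gained calls cannot decide whether a difference holds. With a replicate block, 34 genes were higher and 10 lower between NM-R and mouse, 28 and 8 in ssNM-Rs and 23 and 9 in lsNM-Rs. Eef2 lost its call in this block (adjusted p = 0.156), as did Eif3b, Eif3c, Eef1akmt2, Eprs and Mars2, while Eef1a2 (1.91, adjusted p = 0.00447) and Rars (-0.31, adjusted p = 0.0409) gained one. Eif2s1 became -0.10, and the cohort difference of Eif3k became 0.0065.

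The errors rest on the spread between animals and on the variance trend. Of the 66 genes, the 3 with few mouse reads (Eif4ebp3, Eef1akmt3 and Eef1a2) have folds that depend on the added count.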
